A study of Homo sapiens with 6 samples.

Results

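OTX2, OTX1 and CRX are the orthodenticle-related homeobox genes of human, and they were taken as 3 of the 50883 genes in the deposited count table, by symbol. All 3 were detected in D283, a long-established human line of medulloblastoma, which is a childhood cancer of the cerebellum. RNA was sequenced from 6 cultures, 3 OTX2 knockout and 3 control. Both groups received a lentivirus that expresses GFP and carries a guide RNA, which targets OTX2 in the knockout cultures and is non-targeting in the control cultures, and both were collected 7 days later. The comparison asks which transcripts differ when OTX2 is targeted in this line. The replicates are 3 infections per guide, all of 1 cell line, and the p-values reflect how much such infections vary. Among the details not given in the sources used here are the guide sequence, the share of edited cells and any selection of GFP-positive cells.

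The 3 proteins bind DNA through a homeodomain of the bicoid type, with a lysine at the residue that reads the end of the site, and recognise the letters TAATCC, which the opposite strand of the DNA reads as GGATTA. In the vertebrate embryo OTX2 specifies the forebrain and midbrain and sets the midbrain-hindbrain boundary. In the retina it directs progenitors to the photoreceptor fate and activates CRX, which then drives the genes of rod and cone photoreceptors. OTX1 acts in the cerebral cortex and the inner ear. OTX2 is amplified or highly expressed in many medulloblastomas, above all those of Group 3 and Group 4, and Group 3 tumours are known for photoreceptor transcripts.

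Total counts were 61154088, 60561438 and 62166870 in OTX2 knockout replicates 1 to 3, and 56315049, 61662466 and 54540645 in control replicates 1 to 3. Levels are given as CPM, which is counts relative to a common library size, with TMM scaling between libraries, and 3 counts were worth 0.0471 to 0.0485 CPM in OTX2 knockout libraries and 0.0508 to 0.0563 CPM in control libraries. The test was edgeR's quasi-likelihood test, and all adjusted p-values below come from it, over 18420 genes, with a threshold of 0.05. Of the genes tested, 39.7% passed, 21.2% as higher and 18.5% as lower in OTX2 knockout cultures, and the median log2 fold change was 0.0062. Higher genes made up 53.4% of the genes that passed, and 71.9% when libraries were scaled by their totals alone. Control replicate 1 differed from both other controls in mitochondrial RNA, which was 0.5313% to 0.6015% of counts in OTX2 knockout libraries, and 0.7642%, 0.4486% and 0.4396% in control replicates 1, 2 and 3. All 3 OTX2 knockout libraries lay above control replicates 2 and 3 and below control replicate 1. With mitochondrial and rRNA genes removed, the log2 fold change was -0.22 for OTX2 (edgeR's adjusted p = 0.00606) and -0.18 for CRX (0.0153). For OTX1 it was -0.40 (0.0617). Whether other genes varied along with mitochondrial RNA was not tested. Without control replicate 1, OTX2 had a log2 fold change of -0.20 (adjusted p = 0.0109) and CRX one of -0.18 (adjusted p = 0.0162). All 8 markers of Group 3 medulloblastoma were detected. Their summed level was 3196 to 3575 CPM in OTX2 knockout libraries and 4272 to 4509 CPM in control libraries, and 7 of the 8 were lower in OTX2 knockout cultures (MAB21L2 was higher). The sum is set mostly by the most abundant markers. Among the 7, PDC rested on 20 counts over the OTX2 knockout libraries and 50 over the control libraries, and its groups overlapped. IMPG2, EYS, NRL and PDC stand both among these markers and in the gene lists used further on. In bulk RNA, fewer cells of a type and less RNA per cell cannot be told apart.

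OTX2 lies on chromosome 14 (GRCh38, chr14:56799905-56810479, minus strand, gene ENSG00000165588.16 in GENCODE release 29). The next 250 bases upstream are shown because they lie in the 2703-base gap between OTX2 and the noncoding gene OTX2-AS1, described further on, which is transcribed the other way. They come from the RefSeq promoter table for GRCh38.p14, chr14:56810480-56810729, read on the minus strand. No TAATCC or GGATTA occurs in them, so no letters are in capitals:
OTX2 upstream: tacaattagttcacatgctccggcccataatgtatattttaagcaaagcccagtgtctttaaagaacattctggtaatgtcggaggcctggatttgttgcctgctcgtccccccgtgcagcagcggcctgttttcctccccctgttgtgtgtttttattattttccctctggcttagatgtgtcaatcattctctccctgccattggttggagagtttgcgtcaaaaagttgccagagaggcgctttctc

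CRX lies on chromosome 19 (chr19:47819779-47843330, plus strand, ENSG00000105392.15). RefSeq starts it further 3′ than GENCODE does, and the 250 bases before its RefSeq start held 2 matches to TAATCC or GGATTA. The 152 bases of that window that lie outside exons of protein-coding transcripts are chr19:47821687-47821838, with the match in them in capitals:
CRX upstream: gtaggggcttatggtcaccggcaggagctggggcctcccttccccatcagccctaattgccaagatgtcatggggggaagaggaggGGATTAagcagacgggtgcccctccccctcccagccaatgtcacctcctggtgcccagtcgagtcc

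OTX1 lies on chromosome 2 (chr2:63050057-63057836, plus strand, ENSG00000115507.9), and its window held 0 matches. The exons of OTX2, CRX and OTX1 do not overlap those of another gene. Of the distinct 50-base words of their transcripts, 0 of 3410 in OTX2 and 0 of 4917 in OTX1 occur in another gene. In CRX 256 of 6121 (4.18%) do, and 0 of these are shared with OTX1 or OTX2.

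OTX2 RNA fell slightly. Its counts were 48730, 50946 and 56174 in OTX2 knockout cultures and 55508, 57820 and 48472 in control cultures. Scaled with TMM, these were 765, 824 and 887 CPM in OTX2 knockout cultures and 1002, 979 and 909 CPM in control cultures, so the groups did not overlap on this scale. Relative to library totals alone they overlap. The means were 825 ± 61.1 CPM in OTX2 knockout cultures and 964 ± 48.4 CPM in control cultures (SD, n = 3 each), a log2 fold change of -0.22 (SE 0.06, 95% interval -0.35 to -0.10, adjusted p = 0.00646). That is a fall to 0.857 of the control level. Among the genes tested, 43.5% had a larger absolute log2 fold change. The count table sums all reads of the gene and does not show whether its coding sequence was cut, so this RNA level checks the knockout label weakly.

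CRX also fell. Its counts were 14405, 14617 and 16504 in OTX2 knockout cultures and 15174, 16722 and 14032 in control cultures, or 226, 236 and 261 CPM in OTX2 knockout cultures and 274, 283.2 and 263 CPM in control cultures. The highest knockout value and the lowest control value lie close together, without crossing on this scale. Relative to library totals alone they cross. Means were 241 ± 17.7 CPM in OTX2 knockout cultures and 273.5 ± 10.01 CPM in control cultures (SD, n = 3 each), a log2 fold change of -0.18 (SE 0.06, 95% interval -0.30 to -0.06, adjusted p = 0.0162). The call was lost with library totals alone (log2 fold change -0.10, adjusted p = 0.116) and without OTX2 knockout replicate 1 (-0.14, 0.094), OTX2 knockout replicate 2 (-0.17, 0.08) or control replicate 2 (-0.16, 0.0762), while the direction held in 14 of 14 settings.

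OTX1 was near the lower end of the measured range. Its counts were 64, 75 and 63 in OTX2 knockout cultures and 83, 88 and 66 in control cultures, or 1.005, 1.213 and 0.995 CPM in OTX2 knockout cultures and 1.498, 1.49 and 1.24 CPM in control cultures. The groups did not overlap on this scale, though they do relative to library totals alone, and the change did not pass edgeR's test. The means were 1.07 ± 0.123 CPM in OTX2 knockout cultures and 1.41 ± 0.148 CPM in control cultures (SD, n = 3 each), a log2 fold change of -0.40 (SE 0.16, 95% interval -0.74 to -0.06, adjusted p = 0.0621). It passed in 2 of 14 settings, without OTX2 knockout replicate 2 (adjusted p = 0.0484) and without control replicate 3 (0.0446). The coefficient of variation between replicates was 11.5% in OTX2 knockout cultures, where counting alone gives 12.2%, and 10.5% in control cultures, where it gives 11.3%. The spread between OTX1 replicates thus did not exceed that of counting. For OTX2 it was 7.4% in OTX2 knockout cultures and 5.02% in control cultures, where counting alone gives 0.44% in OTX2 knockout cultures and 0.432% in control cultures.

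In all, 2 of the 3 genes passed as lower in OTX2 knockout cultures, beside 18.5% of genes tested, and 3 of 3 had non-overlapping groups with the knockout cultures lower, beside 23.0% of genes tested (49.2% did not overlap in either direction). This separation depends on TMM scaling, whose factors were 1.019 to 1.0421 in OTX2 knockout libraries and 0.9579 to 0.984 in control libraries. Relative to library totals alone, the groups overlap for each of the 3 genes. No gene of the 3 was higher.

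**Figure D1:**
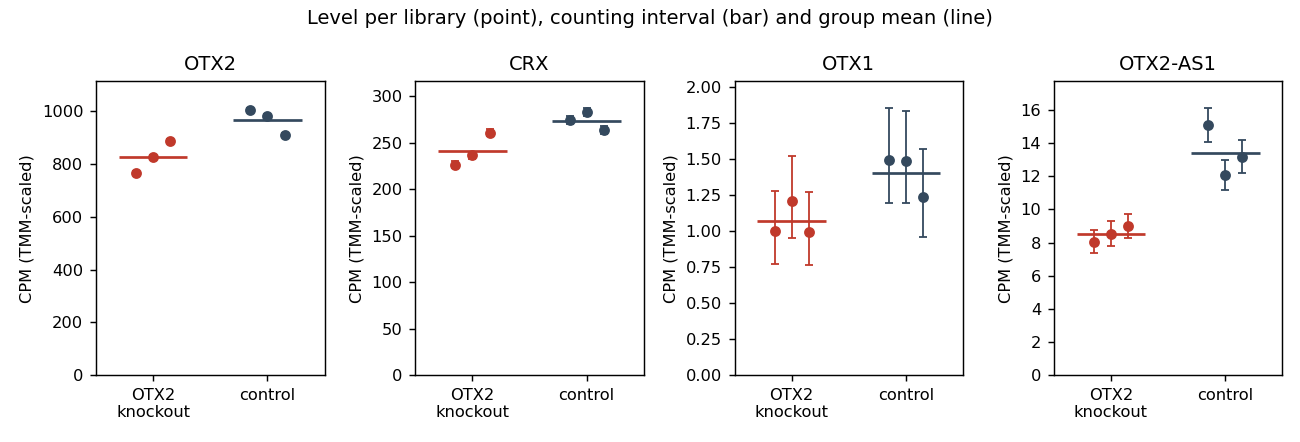
CPM of OTX2, CRX, OTX1 and OTX2-AS1 in each of the 3 OTX2 knockout and 3 control cultures (points), with the 95% counting interval of each library (bars), the group mean (line) and a separate vertical axis for each gene. With TMM scaling, the 3 OTX2 knockout points lie below the 3 control points for each of the 4 genes, with a wider gap for OTX2-AS1. Relative to library totals alone, the groups of OTX2, CRX and OTX1 overlap.

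On a per-length scale (mean CPM per kilobase of exon), OTX2 was the most abundant, then CRX, then OTX1, in every culture. The values were 252 ± 18.7, 40.2 ± 2.96 and 0.222 ± 0.0254 in OTX2 knockout cultures and 294 ± 14.8, 45.6 ± 1.67 and 0.292 ± 0.0306 in control cultures. OTX2 ranked 107th of 14918 genes in OTX2 knockout cultures and 104th in control cultures, CRX ranked 838th in OTX2 knockout cultures and 772nd in control cultures, and OTX1 ranked 13348th in OTX2 knockout cultures and 12636th in control cultures. OTX2 made up 86.0%, 86.4% and 86.1% of the summed per-length level of the 3 genes in OTX2 knockout cultures, and 86.9%, 86.3% and 86.3% in control cultures. CRX made up 13.9%, 13.5% and 13.8% in OTX2 knockout cultures, and 12.98%, 13.63% and 13.64% in control cultures. The ranges of both shares overlap between the groups.

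The ratio of CRX to OTX2 counts within each library was 29.6, 28.7 and 29.4 CRX counts per 100 OTX2 counts in OTX2 knockout libraries, and 27.3, 28.9 and 28.9 in control libraries, and the groups overlapped. OTX1 stood at 1.31, 1.47 and 1.12 counts per 1000 OTX2 counts in OTX2 knockout libraries and 1.49, 1.52 and 1.36 in control libraries, which also overlapped. These ratios do not depend on library scaling.

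**Figure D2:**
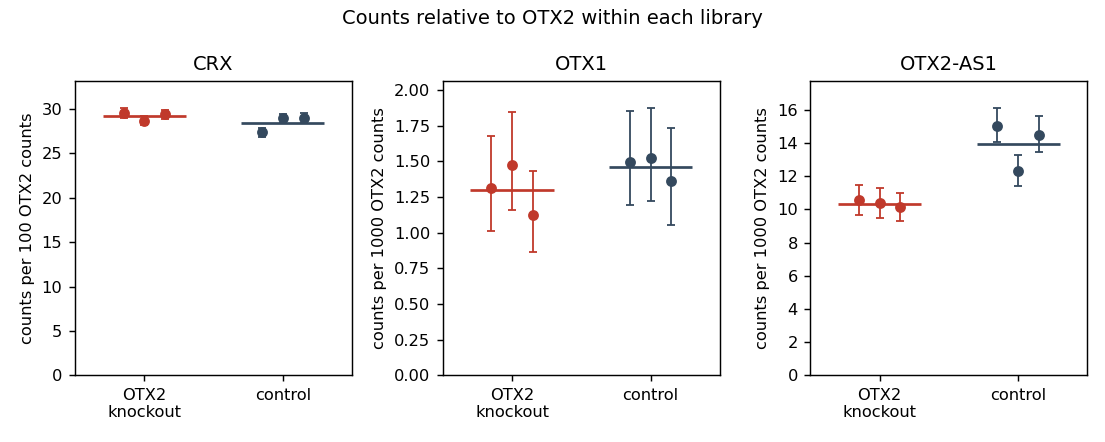
Ratio to OTX2 counts in each library for CRX, OTX1 and OTX2-AS1 in the 3 OTX2 knockout and 3 control cultures (points), with the 95% counting interval of each library (bars) and the group mean (line). CRX and OTX1 ratios overlap between the groups, and the OTX2-AS1 ratio is 10.1 to 10.5 per 1000 in OTX2 knockout libraries and 12.3 to 15.04 in control libraries.

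Of the related noncoding RNAs and pseudogenes, CRXOS and OTX2P1 were not analysed here. OTX2-AS1 is a noncoding RNA gene on the opposite strand (chr14:56813183-57152177, plus strand, ENSG00000248550.3), with no exon overlapping OTX2. Its RNA fell too. It had 8.05, 8.54 and 8.99 CPM in OTX2 knockout cultures and 15.1, 12.1 and 13.2 CPM in control cultures, with no overlap. The means were 8.53 ± 0.466 CPM in OTX2 knockout cultures and 13.4 ± 1.53 CPM in control cultures (SD, n = 3 each), and the log2 fold change of -0.66 (SE 0.08, adjusted p = 1.84e-05) passed in 14 of 14 settings. Within each library, 10.5, 10.4 and 10.1 OTX2-AS1 counts stood beside 1000 OTX2 counts in OTX2 knockout libraries, and 15.04, 12.31 and 14.48 in control libraries. An exact two-sided permutation test gave p = 0.1 for the difference in ratio, which is the smallest p that 3 against 3 libraries allow.

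**Figure D3:**
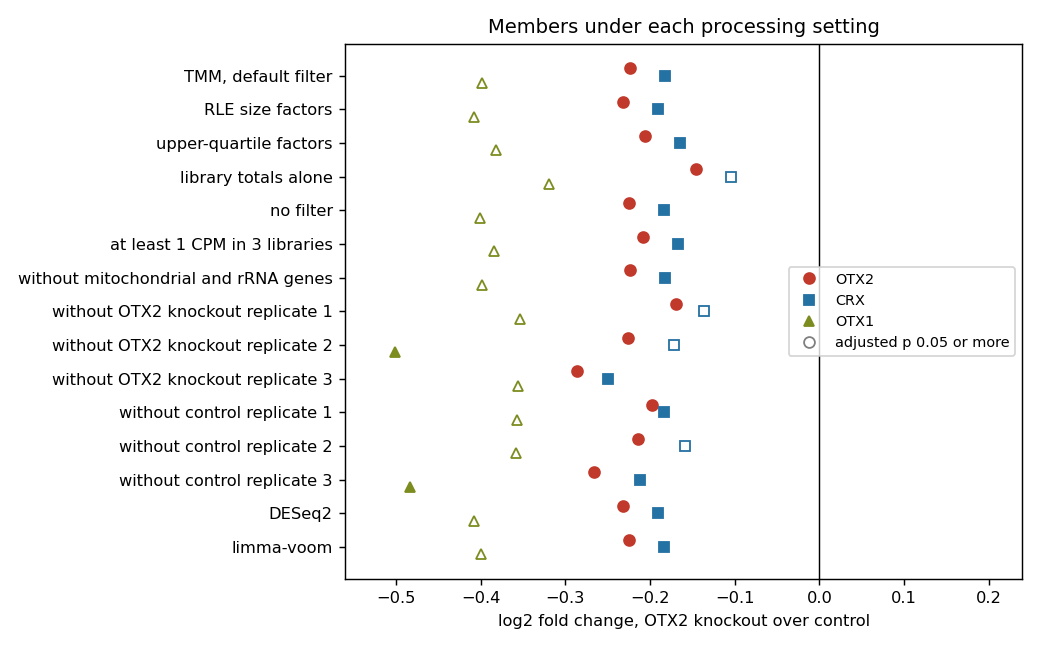
Log2 fold change of OTX2, CRX and OTX1, OTX2 knockout over control, under the default processing and 14 alternatives (vertical axis); filled symbols passed an adjusted p of 0.05 and open ones did not. All values are below 0, OTX2 is filled in all settings, CRX is open in 4 and OTX1 is filled in 2.

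Relatives within the paired class of homeobox genes moved in both directions. Of 35 listed, 34 were in the table and 15 had enough counts to be tested (SEBOX was not analysed here). Of these 15, 6 passed as higher (40%) and 2 as lower (13.3%), with a median log2 fold change of 0.05. Beside them stand 21.2% higher and 18.5% lower among all genes, so the share lower did not exceed that of all genes. TPRX1 is a homeobox gene that arose by duplication of CRX. It had 11.7, 13.1 and 11.4 CPM in OTX2 knockout cultures and 3.67, 3.17 and 3.08 CPM in control cultures, so its groups lie well apart. Its log2 fold change was 1.87 (SE 0.09, adjusted p = 6.13e-10), a 3.65-fold rise. It is the neighbour of CRX on the opposite strand (chr19:47801243-47819051, minus strand, ENSG00000178928.8), with 0.727 kilobases between them. TPRX1 shares 12.3% of its 50-base words with other genes, most of them with the pseudogene TPRX2P, so its count is uncertain.

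LEUTX, another gene that arose by duplication of CRX and is active in the early human embryo, had 0.502, 0.437 and 0.505 CPM in OTX2 knockout cultures and 0.108, 0.0508 and 0.169 CPM in control cultures (log2 fold change 2.14, SE 0.35, adjusted p = 0.000196). It rested on 91 counts over the OTX2 knockout libraries and 18 over the control libraries. UNCX had 132 counts over the OTX2 knockout libraries and 13 over the control libraries (log2 fold change 3.14, adjusted p = 1.73e-05). PRRX1, a mesenchymal factor, rose by 1.68 on the log2 scale (adjusted p = 0.000515). PHOX2A, an autonomic neuron factor, rose by 0.61 (adjusted p = 0.00238), but its exons overlap those of INPPL1, which has far more counts.

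DMBX1, a midbrain homeobox gene, had 119, 120 and 123 CPM in OTX2 knockout cultures and 175, 180 and 169 CPM in control cultures (log2 fold change -0.53, SE 0.05, adjusted p = 2.53e-07). MIXL1, a mesendoderm factor, had 10.1 ± 1.095 CPM in OTX2 knockout cultures and 17.3 ± 2.20 CPM in control cultures (log2 fold change -0.77, adjusted p = 1.02e-05). Per length, OTX2, DMBX1 and CRX were the 3 most abundant of 18 genes in both groups. The CPM per kilobase of DMBX1 and CRX overlapped in OTX2 knockout cultures (41.1 to 42.6 for DMBX1, 37.8 to 43.5 for CRX), but not in control cultures (58.2 to 62.0 for DMBX1, 43.9 to 47.3 for CRX). TPRX1 ranked 4th in OTX2 knockout cultures and 7th in control cultures, and OTX1 ranked 16th in OTX2 knockout cultures and 13th in control cultures.

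**Figure D4:**
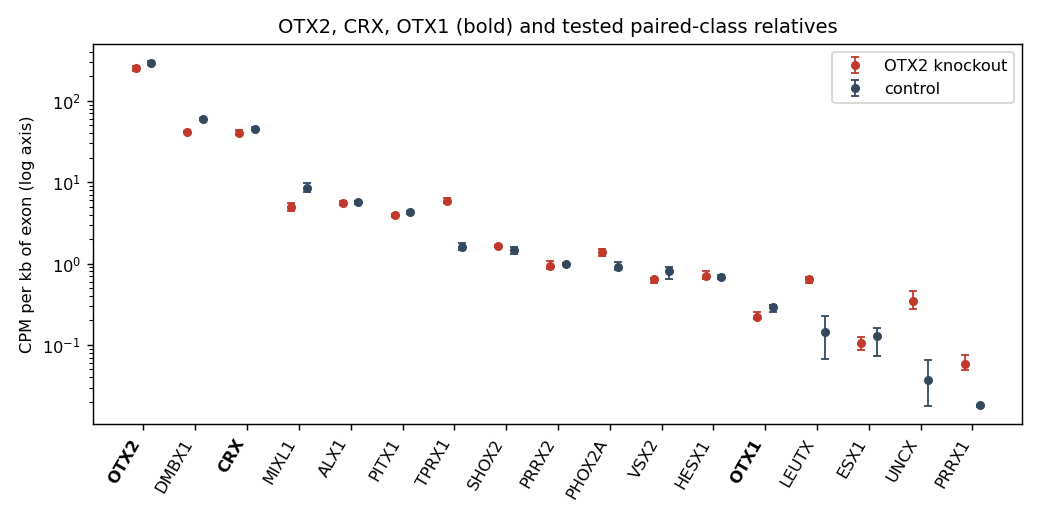
CPM per kilobase of exon, on a log axis, of OTX2, CRX, OTX1 and tested paired-class genes in OTX2 knockout and control cultures (mean, with the range over 3 libraries). OTX2 lies highest in both groups, and TPRX1, UNCX and LEUTX are higher in OTX2 knockout cultures.

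The photoreceptor genes that CRX and OTX2 act on in the retina were mostly lower. Of 45 listed genes, 45 were in the table and 35 were tested; 22 of these (62.9%) passed as lower, 1 (2.86%) as higher, with a median log2 fold change of -0.70. Leaving out any 1 library gave 20 to 22 lower. Beside these shares stand 18.5% lower and 21.2% higher among all genes. This list and the others were chosen with earlier results of these data known, so such contrasts are descriptive. IMPG2, a proteoglycan of the matrix around photoreceptors, had 383, 431 and 427 CPM in OTX2 knockout cultures and 692, 712 and 701 CPM in control cultures (log2 fold change -0.76, SE 0.05, adjusted p = 2.2e-08). GNB3, the beta subunit of the cone G protein, had 56.5, 64.9 and 72.3 CPM in OTX2 knockout cultures and 147, 148 and 131 CPM in control cultures (log2 fold change -1.14, adjusted p = 1.81e-08), although its exons overlap those of CDCA3. ABCA4, a retinal transporter, had 15.6 ± 0.408 CPM in OTX2 knockout cultures and 36.2 ± 2.07 CPM in control cultures (log2 fold change -1.21, adjusted p = 3.83e-10). PDE6H, an inhibitory cone phosphodiesterase subunit, had 33.5 ± 0.642 CPM in OTX2 knockout cultures and 64.1 ± 2.49 CPM in control cultures (log2 fold change -0.94, adjusted p = 1.04e-09). FSCN2, the 1 gene higher, rested on groups that overlap and lost its call in 4 of 13 settings that gave it a value.

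Retinal transcription factors that act with or below OTX2 moved in both directions. Of 22 tested, 12 passed as higher (54.5%) and 5 as lower (22.7%), with a median log2 fold change of 0.39 (NR2E3 was not analysed here). With 21.2% higher and 18.5% lower among all genes, the share lower was close to that of all genes. NRL, the factor that sets rod fate, had 13.55, 15.01 and 15.32 CPM in OTX2 knockout cultures and 28.8, 31.1 and 26.7 CPM in control cultures (log2 fold change -0.98, adjusted p = 2.62e-08), with exons that overlap DCAF11. PRDM1, a repressor that keeps photoreceptor precursors from bipolar fate in mouse, had 1.82, 1.28 and 1.93 CPM in OTX2 knockout cultures and 5.72, 4.93 and 4.88 CPM in control cultures (log2 fold change -1.62, adjusted p = 2.14e-07). NEUROD1, a proneural basic helix-loop-helix factor, had 143, 162 and 136 CPM in OTX2 knockout cultures and 43.0, 41.9 and 38.7 CPM in control cultures (log2 fold change 1.84, adjusted p = 2.16e-11).

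PRDM8, a bipolar cell factor in mouse, rose to 4.38 ± 0.382 CPM in OTX2 knockout cultures, against 0.530 ± 0.0840 CPM in control cultures (log2 fold change 3.04, adjusted p = 6.9e-10). NEUROD4 rose by 3.07 (adjusted p = 4.14e-08) and LHX4 by 1.80 (adjusted p = 9.38e-08) on the log2 scale. PRDM13, an amacrine factor, fell by 0.37 (adjusted p = 0.000128), the thyroid hormone receptor gene THRB by 0.41 (adjusted p = 0.00347), and TBX2 by 0.26 (adjusted p = 0.035) with overlapping groups.

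Genes of the pigment epithelium, choroid plexus and pineal gland, where OTX2 is also expressed, had a median log2 fold change of -0.38. Of 18 tested, 9 were lower (50%) and 1 higher (5.56%), beside 18.5% lower and 21.2% higher among all genes. TTR, the thyroxine carrier secreted by choroid plexus, had 1.68, 2.12 and 1.94 CPM in OTX2 knockout cultures and 9.66, 7.32 and 6.51 CPM in control cultures (log2 fold change -2.03, adjusted p = 3.6e-08). TRPM1, a cation channel of melanocytes and bipolar cells, had 3.53, 3.38 and 4.15 CPM in OTX2 knockout cultures and 15.6, 14.0 and 12.4 CPM in control cultures (log2 fold change -1.93, adjusted p = 1.16e-09). TRPM3, a cation channel abundant in choroid plexus, had 266 ± 3.82 CPM in OTX2 knockout cultures and 402 ± 26.0 CPM in control cultures (log2 fold change -0.59, adjusted p = 3.1e-07). OCA2, a melanosome gene, fell by 0.79 on the log2 scale (adjusted p = 2.02e-08). TPH1, a serotonin-synthesis gene, was the 1 higher and lost its call in 9 of 14 settings. MITF, the pigment cell master regulator, had 11.3 ± 0.538 CPM in OTX2 knockout cultures and 10.9 ± 0.379 CPM in control cultures (adjusted p = 0.576), and MLANA was listed at 0 in all libraries.

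Rostral patterning and midbrain-hindbrain boundary genes gave 6 higher (54.5%) and 0 lower of 11 tested, with a median log2 fold change of 0.52. All genes tested gave 21.2% higher and 18.5% lower. LHX1 was not analysed here. EMX1, a cortical homeobox gene, had 277 counts over the OTX2 knockout libraries and 4 over the control libraries, a ratio of 61.5 (95% counting interval 23.8 to 227, edgeR's adjusted p = 5.1e-08). BARHL1, a homeobox gene of the rhombic lip and diencephalon, had 147 counts over the OTX2 knockout libraries and 1 over the control libraries, a ratio of 131 (23.1 to 5191, edgeR's adjusted p = 1.79e-06). FGF18, a boundary signal, rose by 1.38 (adjusted p = 0.0016) and BARHL2 by 0.55 (adjusted p = 0.00621). EN1 rose by 0.69 (adjusted p = 0.0355), with overlapping groups and a call lost in 4 of 13 settings. GBX2, which opposes OTX2 at the boundary, had 7 counts over the OTX2 knockout libraries and 4 over the control libraries.

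Cofactors gave 4 higher (33.3%) and 3 lower (25%) of 12 tested, with a median log2 fold change of -0.06. The shares among all genes were 21.2% higher and 18.5% lower, and the difference from them was not tested. TLE4, a Groucho corepressor that OTX2 binds, had 10.4 ± 1.02 CPM in OTX2 knockout cultures and 4.95 ± 0.422 CPM in control cultures (log2 fold change 1.07, adjusted p = 2.73e-07). TLE2 rose by 0.55 (adjusted p = 2.73e-06), TLE5, a shortened Groucho relative, by 0.32 (adjusted p = 6.15e-05) and MEIS2 by 0.38 (adjusted p = 0.00101). TLE1 fell by 0.22 (adjusted p = 0.00143), with 38.5 ± 0.431 CPM in OTX2 knockout cultures and 44.6 ± 0.462 CPM in control cultures. KAT2A fell by 0.16 and HMGA1 by 0.14, and they lost their calls in 3 and 8 of 14 settings.

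**Figure D5:**
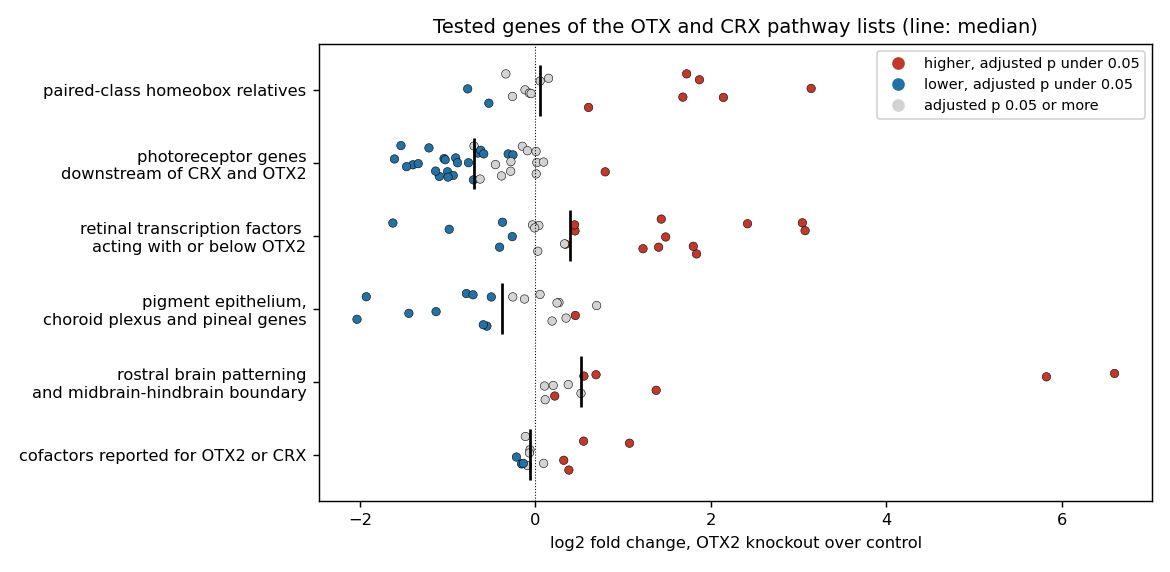
Log2 fold change, OTX2 knockout over control, of each tested gene (points) in the 6 gene lists, with the list median marked. The medians are -0.70 for photoreceptor genes, -0.38 for pigment, choroid plexus and pineal genes, -0.06 for cofactors, 0.05 for paired-class relatives, 0.39 for retinal transcription factors and 0.52 for rostral patterning genes.

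Some markers of other cell types differed between OTX2 knockout and control cultures, and their part in the results was not tested. Among all genes tested, 21.2% were higher and 18.5% lower. The marker lists hold too few tested genes for a comparison with those shares. The summed level of 6 fibroblast markers was 29.03 to 29.62 CPM in OTX2 knockout libraries and 19.2 to 20.6 CPM in control libraries, with 3 of 5 tested genes higher. The 6 endothelial markers summed to 5.56 to 6.59 CPM in OTX2 knockout libraries and 2.55 to 3.995 CPM in control libraries, with 2 of 3 tested genes higher and CDH5 at 0 counts in the control libraries. Among oligodendrocyte markers, MBP, MOG and MAG had 1 count or fewer, and CNP had 83.7 ± 4.83 CPM in OTX2 knockout libraries and 82.0 ± 4.66 CPM in control libraries (edgeR's adjusted p = 0.71). The 6 immune markers summed to 0.534 to 0.647 CPM in OTX2 knockout libraries and 0.825 to 0.932 CPM in control libraries, with CD3E at 0 and 1 of 3 tested genes higher and 1 lower.

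Letters of the OTX and CRX site were searched in the 250 bases before each RefSeq start, as TAATCC or GGATTA on either strand. They occurred in 1974 of 35116 windows (5.62%), and 2 or more times in 120 windows (0.342%). Counted by gene, 6.9% of 27305 genes had a match, and 6.27% of 10764 genes that were tested. A match was found for 8 of 31 photoreceptor genes with a window (25.8%), 5 of 16 pigment, choroid plexus and pineal genes (31.2%), 5 of 25 retinal factors (20%), 3 of 23 paired-class relatives (13%), 1 of 13 cofactors and 0 of 16 rostral patterning genes. Among photoreceptor genes it was found in 3 of 15 that were lower and 3 of 8 tested that were not lower, and among pigment, choroid plexus and pineal genes in 2 of 7 and 2 of 6. The sites of CRX, and of the 6 genes of the photoreceptor, retinal factor and pigment lists that were lower and held a match, are shown with 12 bases either side, with the match in capitals. Distances are to the RefSeq start, and both CRX sites lie inside the GENCODE span of CRX. The CRX site 85 bases before the start lies beyond the 152 bases shown above, in the part left out for exons of protein-coding transcripts. A match is a description of the letters, not a measured binding site:
CRX, chr19:47821761-47821790, + strand, 164 bases before the start: gggaagaggaggGGATTAagcagacgggtg
CRX, chr19:47821840-47821869, + strand, 85 bases before the start: ccaccttggccgGGATTAccctccgagttc
GUCA1A, chr6:42173208-42173237, + strand, 144 bases before the start: ggtggtaagaagGGATTAgaagattgcaaa
GUCA1A, chr6:42173264-42173293, + strand, 88 bases before the start: agctcaaggctgTAATCCtaaggactctgc
SAG, chr2:233307760-233307789, + strand, 44 bases before the start: ctgtctcagcacTAATCCaactctgctcct
EYS, chr6:65707222-65707251, - strand, 13 bases before the start: agaagctttattGGATTAggcttctgagaa
PRDM13, chr6:99606614-99606643, + strand, 207 bases before the start: accccatgctgaGGATTAatggtcccgccg
TRPM1, chr15:31161220-31161249, - strand, 77 bases before the start: ttggggatggagGGATTAagcctgattaca
DCT, chr13:94479768-94479797, - strand, 103 bases before the start: tttctgtaatacTAATCCccctaatgaagg

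GUCA1A, a guanylate cyclase activator of photoreceptors, held 2 matches. It had 1.77 ± 0.194 CPM in OTX2 knockout cultures and 3.64 ± 0.317 CPM in control cultures (log2 fold change -1.04, adjusted p = 8.08e-06). SAG, the rod arrestin gene, had 34 counts over the OTX2 knockout libraries and 80 over the control libraries (log2 fold change -1.40, adjusted p = 0.00178). EYS, a photoreceptor matrix gene, fell by 0.59 on the log2 scale (adjusted p = 1.05e-05) and overlaps PHF3. DCT, a pigment synthesis gene, had 191 ± 23.3 CPM in OTX2 knockout cultures and 281 ± 7.18 CPM in control cultures (log2 fold change -0.55, adjusted p = 1.55e-05).

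The genes whose pattern was most like each of the 3 were measured by the root mean square distance of centred log2 CPM over the 6 libraries, among genes with a mean of at least 10 CPM. The distances describe these libraries, which share 1 cell line and 1 scaling. For OTX2 the nearest were TP53BP2 (0.0109 log2 units), CPNE1 (0.0144) and MBTD1 (0.0176), and CRX was 59th of 9630. For CRX they were CEBPZ (0.0161), CD27-AS1 (0.0164) and OPA1 (0.0171), and OTX2 was 77th. For OTX1 they were AARS (0.056), PSAT1 (0.0651) and TIMELESS (0.067), and OTX2 was 789th of 9631.

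The nearest tested genes on each side were also read. Beside OTX1, EHBP1 (3.57 kilobases away) had 31.7 ± 1.11 CPM in OTX2 knockout cultures and 38.0 ± 2.17 CPM in control cultures (log2 fold change -0.26, adjusted p = 0.00131), and WDPCP (63.5 kilobases) had an adjusted p of 0.147. Beside CRX, TPRX1 was higher, as given above, and TPRX2P had 1.5 ± 0.298 CPM in OTX2 knockout cultures and 0.786 ± 0.0449 CPM in control cultures (log2 fold change 0.93, adjusted p = 0.000995). Beside OTX2, TMEM260 (149 kilobases) had a log2 fold change of 0.04 (adjusted p = 0.675).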

How the data were processed

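RNA was measured in 6 cultures of D283, in 2 groups of 3. The authors deposited a table of counts per gene, with 1 column per library, assigned by title. Per the submitters' processing notes, the tools include STAR and the build is hg38. Not given in the sources used here are the counting program, the annotation and the strand setting. Reads of overlapping genes cannot be assigned with certainty. The table held 50883 genes, 17682 of them at 0 in every library, and 0 rows named no gene.

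Counts as deposited were tested with edgeR 4.0.16 in R 4.3.3 (filterByExpr, TMM, glmQLFit, glmQLFTest; Benjamini-Hochberg adjustment over 18420 genes; 4 residual degrees of freedom; biological coefficient of variation 5.3%). The fit was tested on simulated data. DESeq2 1.42.0 and limma 3.58.1 (voom) were alternatives, with other scalings and filters, removal of mitochondrial and rRNA genes, and each library left out in turn. Coordinates and exon lengths are from GENCODE release 29. Replicate pairs differed by more than sampling noise, as measured by chi-square per degree of freedom. It was 18.04 and 20.92 between control replicate 1 and control replicates 2 and 3, but 4.404 between control replicates 2 and 3. Pairs of OTX2 knockout replicates gave 4.296 to 11.36. Control replicate 1 was thus the least like its group. Whether this went beyond its mitochondrial RNA was not tested. Intervals of single libraries and of count ratios cover counting error only. Those of the log2 fold changes come from edgeR's fit and include variation between replicates. PCR copies of a molecule cannot be told from separate ones.

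The members and the 201 entries of the gene lists were chosen with earlier results of these data known. TLE5 was matched through an older symbol. Named are the 3 members, the RNA at their loci, every changed gene of a list where 6 or fewer changed in a direction, otherwise the 4 with the smallest adjusted p, and the 3 genes most like each member with a mean of at least 10 CPM. Genes named for a sequence match, a neighbouring position or a low level were added after their values were seen. Some genes that this rule or the marker lists take are not reported here, but they are included in the counts and ranks of their lists.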

Additional observations from a re-analysis of the deposited data

How the results depend on the processing

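OTX2 passed in 14 of 14 alternatives (log2 fold change -0.29 to -0.15). CRX was lower in 14 and not called with library totals alone (-0.10); leaving out 1 library gave -0.25 to -0.14, with the call lost in 3 cases. OTX1 was lower in 14, and leaving out 1 library gave -0.50 to -0.35, with a call in 2 cases. Library totals alone moved the median of all genes by 0.0785 and left 2034 genes lower, against 3404. The stricter filter of at least 1 CPM left 3 paired-class genes and 3 rostral genes higher, against 6 each. UNCX, LEUTX, PRRX1, BARHL1, FGF18, EN1 and the photoreceptor gene FSCN2 fell below that filter and so were not tested under it. Photoreceptor genes higher numbered 2 with no filter and 0 with the stricter filter or DESeq2, and 0 to 2 without 1 library, against 1. Pigment, choroid plexus and pineal genes higher numbered 2 with library totals, 0 with RLE, no filter, DESeq2 or voom, and 0 to 1 without 1 library, against 1. Cofactors lower numbered 1 with library totals and 1 to 3 without 1 library, against 3. The causes of the other shifts were not tested. The other counts and the ratios to OTX2 stayed within 1.5 times or within the spread. The precision of OTX1 is limited by its 202 counts over the OTX2 knockout libraries and 237 over the control libraries. No paired analysis was possible because the labels give no replicate numbers that the groups share.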

Other observations

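ARGFX, a further homeobox gene that arose by duplication of CRX, was below the filter, with 6 counts over the OTX2 knockout libraries and 1 over the control libraries, and DPRX had 0 in all 6. RNU6-1204P, a U6 RNA copy within the span of OTX2-AS1, had 0.984 ± 0.284 CPM in OTX2 knockout cultures and 1.92 ± 0.359 CPM in control cultures (SD, n = 3 each). Its log2 fold change was -0.96 (edgeR's adjusted p = 0.00123) and near-identical copies make its count uncertain.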
